A study of Blattella germanica with 8 samples.

Results

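Bla g 4 is a lipocalin of the German cockroach, Blattella germanica, and a known cockroach allergen. The data described here are the read counts of 2 of its genes in the conglobate gland, a male accessory gland found in cockroaches that adds secretion to the spermatophore. The genes were taken as the rows BGER028757-RA and BGER028759-RA of the gene count table, 2 rows of 30784. They were identified by level and order with Bger_21210 and Bger_21212, which the study lists by sequence similarity as Bla g 4 isoallergens 1 and 2. Both passed the filter on low counts, which left 14444 rows for testing.

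Lipocalins are small secreted proteins folded into a barrel whose cavity holds a small, usually hydrophobic, ligand. Bla g 4 is known as a protein of adult males that is made in the accessory glands and passes to the female with the spermatophore, and it is reported to bind tyramine and octopamine, the insect counterparts of adrenaline and noradrenaline. Isoallergens are closely related forms of 1 allergen, here encoded by separate genes.

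The samples were whole conglobate glands of males that had received 2 µg of dsRNA in the abdomen on day 7 of nymphal instar 6, the last one, and were dissected on adult day 7. In dsILP8 males (n = 4 libraries) the dsRNA targeted BgILP8, an insulin-like peptide gene, and in Control males, labelled dsMock (n = 4 libraries), it was a heterologous dsRNA made from the polyhedrin gene of a baculovirus. No uninjected animals were included, the treatment lowers BgILP8 mRNA without removing it, and no source used here gives the number of glands in a library. The p-values therefore measure the spread between libraries. The comparison asks which gland transcripts change when BgILP8 mRNA is depleted. The row taken as BgILP8 held 57.3 to 112.9 CPM in dsILP8 libraries and 1824 to 2849 CPM in Control libraries. CPM is the count of a row relative to all counts of its library, not scaled for transcript length. The row carries no gene name, so these levels are no independent check of the labels. The counts summed to 9060546 to 10934576 per dsILP8 library and to 9328920 to 11461055 per Control library. Across the rows tested, dsILP8 replicate 1 stood apart from the rest, with correlations of 0.933 to 0.946 of log2(CPM + 1) with the other libraries, against 0.969 to 0.981 among those. Values without it are given where they bear on a result.

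The row identifiers carry no gene names, and the reference table held none of them. The identification rests on the levels in the study's list of gland genes and on the order of the rows. The levels compared were mean CPM of the Control libraries only, after 1 scale set on the row taken as BgILP8. The Control levels of both genes, set against dsILP8 below, are thus also the values used to identify them. The values that follow describe that choice of rows and are no independent check of it. Of 88923 pairs of rows numbered up to 3 apart, BGER028757-RA and BGER028759-RA came closest to the pair Bger_21210 and Bger_21212, within a factor of 1.02 for both genes. The next best pair was off by a factor of 2.48. In the Bger_1.1 assembly the loci C0J52_21210 and C0J52_21212, which encode the same protein entries (PSN30047 and PSN30045), lie on contig PYGN01002725.1. The first covers positions 81 to 55261 and the second positions 9520 to 36207, inside the first. Between the start of the first and the start of the second, at positions 8366 to 8877, the table lists a locus with the symbol REXO1L1P_1. The exons, the strands and the strand setting of the counting were not used here, so it is not known whether reads of these Bla g 4 loci can be confused. All 8 libraries had fractional counts in both rows, which means that some reads mapped to more than 1 place and were split.

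BGER028757-RA was among the strongest signals of the gland. It held 71086, 86591, 100278 and 56697 CPM in dsILP8 replicates 1 to 4, against 70606, 71179, 74633 and 63589 CPM in Control replicates 1 to 4. It stood at rank 2 by counts in every one of the 8 libraries, behind BGER020789-RA, and alone took 5.67% to 10.03% of the counts of a dsILP8 library and 6.36% to 7.46% of those of a Control library. The Control libraries lay close together, whereas the dsILP8 libraries held both the highest and the lowest value of the series.

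BGER028759-RA held 18475, 12557, 19708 and 24541 CPM in dsILP8 replicates 1 to 4, against 43842, 20560, 23551 and 24057 CPM in Control replicates 1 to 4. Control replicate 1 was the highest by far, and dsILP8 replicate 4 lay within the range of the Control libraries. The other 3 dsILP8 libraries lay below all 4 Control libraries. The rank of the row by counts was 8 to 10 in dsILP8 libraries and 4 to 8 in Control libraries. With this many counts, 113775 at the least, the 95% Wilson interval of a library's level reached at most 0.577% to either side of the value. That interval covers counting error only, and the differences between libraries are far larger.

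**Figure D1:**
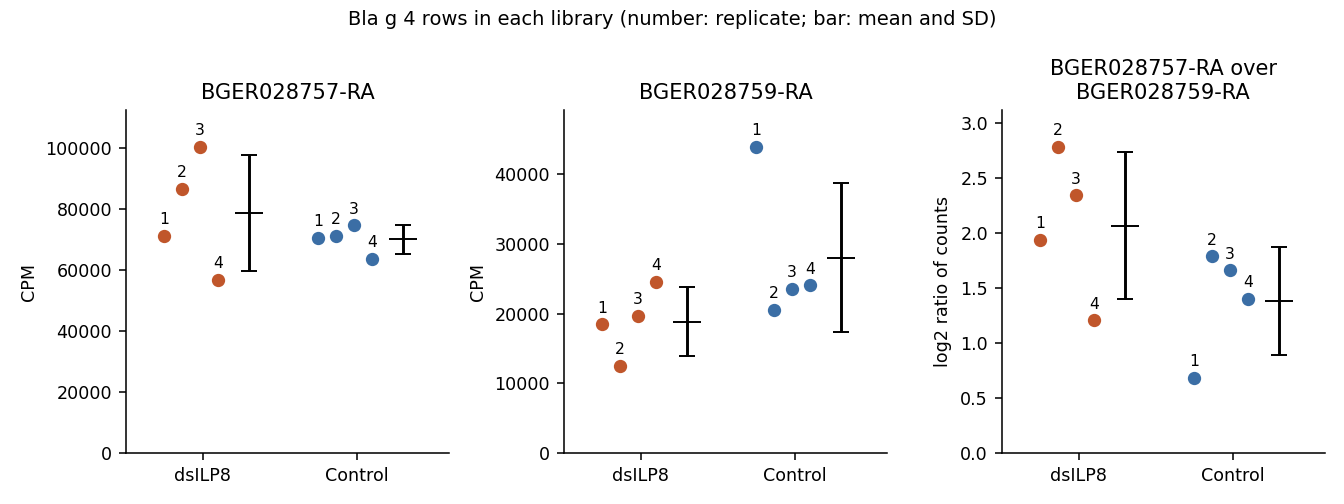
Levels of BGER028757-RA and BGER028759-RA in CPM and the log2 ratio of their counts, in dsILP8 (left) and Control (right) libraries. Points are libraries with their replicate number, and bars give the mean and SD (n = 4). Control replicate 1 stands at 43842 CPM in the middle panel, and all 3 panels have groups that overlap.

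The mean level of BGER028757-RA was 78663 ± 18886 CPM in dsILP8 glands and 70002 ± 4630 CPM in Control glands (SD, n = 4 each). The log2 fold change was 0.13, with a standard error of 0.179 and a 95% interval from -0.27 to 0.54 (FDR = 0.998 from edgeR's quasi-likelihood test). The difference in mean CPM was smaller than the spread between the dsILP8 libraries (8662 CPM, exact two-sided permutation test, p = 0.457). The direction rested on dsILP8 replicate 3: without that library the log2 fold change was -0.03. Without dsILP8 replicate 1 it was 0.18.

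The mean level of BGER028759-RA was 18820 ± 4928 CPM in dsILP8 glands and 28003 ± 10672 CPM in Control glands (SD, n = 4 each). The log2 fold change was -0.61, with a standard error of 0.274 and a 95% interval from -1.23 to 0.00070 (FDR = 0.998 and unadjusted p = 0.0502 from edgeR's quasi-likelihood test). The permutation test on CPM gave a difference of -9182 CPM (exact, two-sided, p = 0.143). The sign was negative under every alternative run, but Control replicate 1 carried much of the size, and without it the log2 fold change was -0.32. Without dsILP8 replicate 1 it was -0.61. The interval excludes neither 0 nor a log2 fold change beyond -1. In whole glands, fewer cells that make the transcript and less of it per cell cannot be told apart.

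Neither of the 2 rows passed the study's thresholds (FDR under 0.05, log2 fold change above 1 or below -1), which 0.00692% of the rows tested passed in edgeR and 0.0208% in DESeq2. Nor did the groups fail to overlap for either of them, as they did for 2.33% of the rows tested. Together the 2 rows took 9.75% ± 1.67 of all counts in dsILP8 libraries and 9.80% ± 1.18 in Control libraries (SD, n = 4 each), a difference of -0.05 percentage points (exact two-sided permutation test, p = 0.971). The summed share was 8.96%, 9.92%, 12% and 8.12% in dsILP8 replicates 1 to 4, against 11.4%, 9.17%, 9.82% and 8.77% in Control replicates 1 to 4.

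The balance between the 2 rows was compared within each library, where depth cancels. There were 3.85, 6.90, 5.09 and 2.31 counts of BGER028757-RA per count of BGER028759-RA in dsILP8 replicates 1 to 4, against 1.61, 3.46, 3.17 and 2.64 in Control replicates 1 to 4. These ratios are of counts per row and, without transcript lengths, not of molecules. The ratio thus ranged over more than 4-fold among 8 libraries of the same gland, and the 3 highest values were all from dsILP8 libraries. The mean log2 ratio was 2.07 ± 0.670 in dsILP8 and 1.39 ± 0.493 in Control libraries (SD, n = 4 each). The difference of 0.68 is also the test of whether the 2 rows responded differently to the treatment. It was not told apart from 0 (exact two-sided permutation test, p = 0.171, where 4 libraries against 4 cannot give less than 0.029). It ran from 0.45 (without dsILP8 replicate 2) to 0.97 (without dsILP8 replicate 4) when each library was left out in turn.

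Libraries with more BGER028757-RA did not hold more BGER028759-RA. Across the 8 libraries Pearson's r of the log2 CPM was -0.43 (exact permutation test, p = 0.273, adjusted over both coefficients 0.273) and Spearman's rho was -0.71 (exact permutation test, p = 0.0576, adjusted 0.115). Without dsILP8 replicates 3 and 4, the libraries farthest from the median of BGER028757-RA, r was -0.60 (n = 6, exact permutation test, p = 0.192). For deviations from the group means r was -0.34, and a group of 4 is too small for a value of its own. Counts of a library are shares of 1 total, so 2 abundant rows are not free to vary independently. With the most abundant row removed from the total, which leaves both Bla g 4 rows in it, r was -0.43, with TMM-scaled library sizes it was -0.30 (n = 8, exact permutation test, p = 0.459), and on linear CPM it was -0.35.

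**Figure D2:**
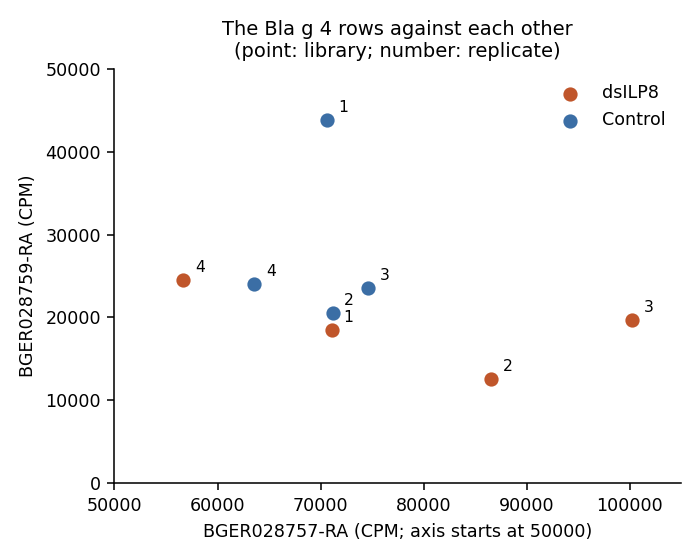
BGER028759-RA (vertical axis, CPM) against BGER028757-RA (horizontal axis, CPM, starting at 50000) in the 4 dsILP8 and 4 Control libraries, numbered by replicate. The libraries with most BGER028757-RA, dsILP8 replicates 2 and 3, lie low on the vertical axis, and Control replicate 1 lies apart at the top.

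The rows numbered around the pair were at a different order of level. Of the 21 other rows whose number lies within 10 of either gene, 5 had no count in any library, 4 lay under 1 CPM and 12 had means of 1.47 to 86.2 CPM. BGER028759-RA stood 272 times above the highest of them in counts, BGER028761-RA. The row between the pair, BGER028758-RA, had 0, 1, 0 and 14 counts in dsILP8 replicates 1 to 4, against 23, 15.5, 13 and 6 in Control replicates 1 to 4 (edgeR's log2 fold change -1.94 with a standard error of 0.989, FDR = 0.998). The value was -4.98 without dsILP8 replicate 4 and -3.25 with limma-voom. Counts were thus high for each row of the pair and low for the row between them. The pair was picked by its level, so the high level of its rows follows from that choice.

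**Figure D3:**
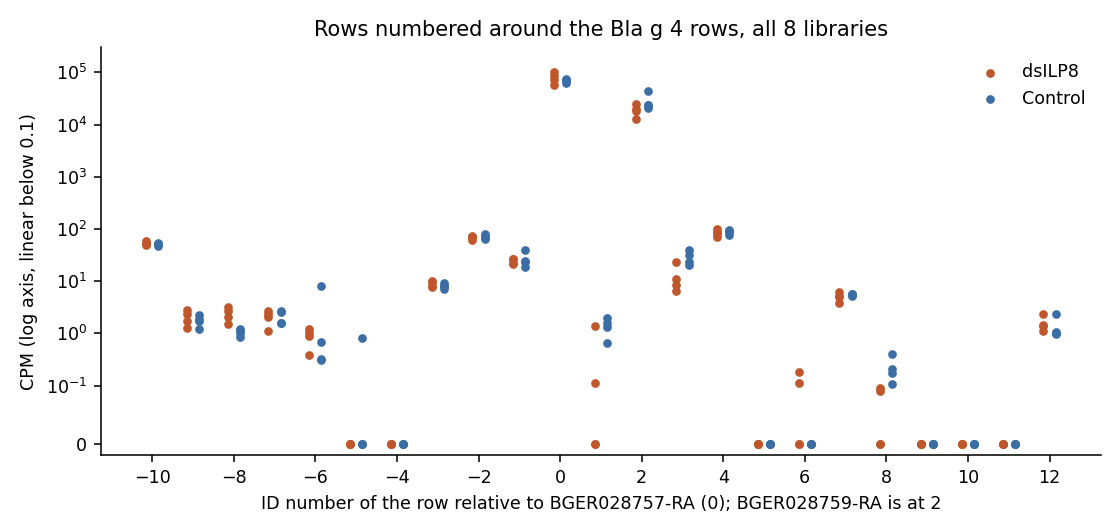
CPM in each library (log axis, linear below 0.1) of the rows numbered from 10 before BGER028757-RA to 10 after BGER028759-RA, with dsILP8 points left and Control points right at each row. The Bla g 4 rows, at 0 and 2, lie between 12557 and 100278 CPM, and the other rows have means of at most 86.2 CPM.

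None of the 14 of these neighbours that could be tested passed an FDR of 0.05 in edgeR's test, and their median log2 fold change was -0.12, beside -0.0045 over all rows tested. At an unadjusted p under 0.05, 2 were lower and 1 was higher in dsILP8 glands, where 1.61% and 2.32% of all rows tested were. One of the lower rows, BGER028765-RA, which is named after its values were seen, had at most 4 counts in a library. The other was BGER028760-RA, the row after the pair. It held 6.37, 8.58, 10.8 and 22.9 CPM in dsILP8 replicates 1 to 4, against 39.0, 20.6, 23.6 and 31.8 CPM in Control replicates 1 to 4. The order resembled that of BGER028759-RA, with dsILP8 replicates 1 to 3 below every Control library, dsILP8 replicate 4 among them and Control replicate 1 on top. The row had a log2 fold change of -1.30 with a standard error of 0.373 (edgeR's unadjusted p = 0.00639, FDR = 0.998). Its counts amounted to 0.0345% to 0.0933% of those of BGER028759-RA in dsILP8 libraries and to 0.0889% to 0.132% in Control libraries. It had fractional counts in 7 of 8 libraries, and whether it shares reads with BGER028759-RA was not tested. The higher row, BGER028749-RA, held 1.54 to 3.26 CPM in dsILP8 and 0.873 to 1.24 CPM in Control libraries (edgeR's log2 fold change 1.096 with a standard error of 0.320, FDR = 0.998).

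The 20 most abundant rows held 45.9% to 59.2% of the counts of a library. Of these rows, 4 had log2 fold changes above 0 and 16 below 0 in edgeR. Their median was -0.11, beside -0.0045 over all rows tested. With library sizes that leave out these 20 rows, the medians were -0.18 and -0.087. With other factors, library sizes or tools 3 to 5 of the 20 were above 0. In edgeR with TMM, BGER028757-RA had the second highest fold change of the 20 and BGER028759-RA the second lowest. None of the 20 passed an FDR of 0.05 in edgeR's test, and 1, BGER024485-RA, had an unadjusted p under 0.05, as 3.93% of all rows tested had. The spread between libraries also differed between the 2 genes, mainly in the Control group. There the SD of CPM was 6.6% of the mean for BGER028757-RA and 38.1% for BGER028759-RA. Control replicate 1 stood far above the rest for BGER028759-RA. In dsILP8 libraries the SD was 24.0% and 26.2% of the mean. Over both groups the within-group SD of log2 CPM was 0.26 for BGER028757-RA and 0.45 for BGER028759-RA. Of the 71 rows with a mean of at least 1000 CPM, 41 had a larger SD than the first and 19 a larger SD than the second, and the median was 0.32.

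**Figure D4:**
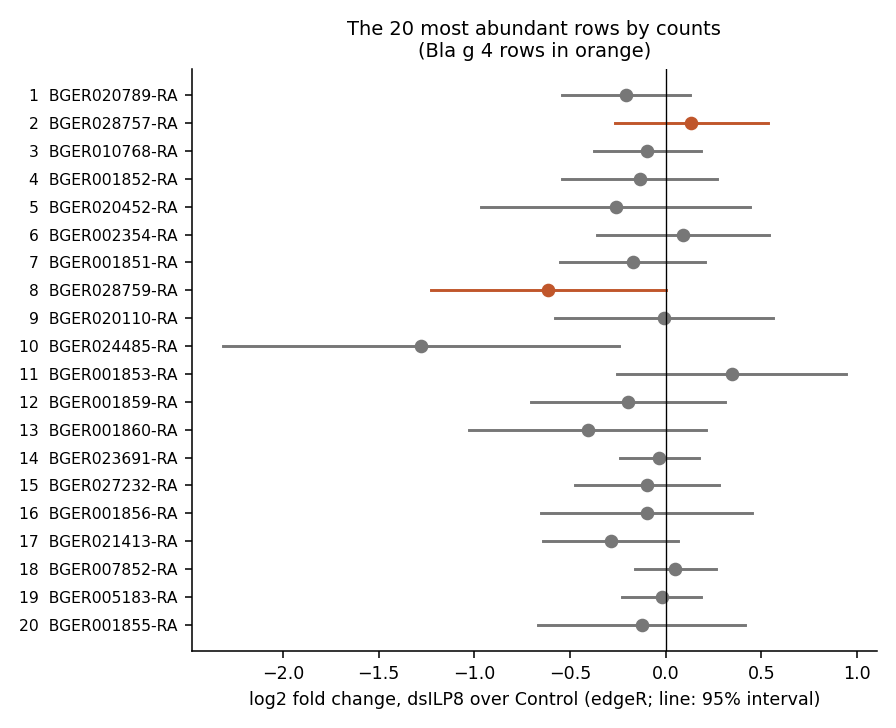
Log2 fold change of dsILP8 over Control for the 20 rows with most counts, in order of their mean CPM from the top, as points with 95% intervals from edgeR. The Bla g 4 rows are in orange, at 0.13 (rank 2) and -0.61 (rank 8). The interval of BGER024485-RA (rank 10) alone lies wholly on one side of 0.

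The rows whose pattern over the 8 libraries was most like that of each gene were sought among 4606 tested rows with a mean of at least 10 CPM, by Pearson's r of log2(CPM + 1). For BGER028757-RA these were BGER014980-RA (r = 0.97), BGER023474-RA (0.92), BGER024193-RA (0.90), BGER025001-RA (0.89) and BGER013841-RA (0.88). For BGER028759-RA they were BGER016007-RA (0.91), BGER009670-RA (0.89), BGER018651-RA (0.87), BGER002308-RA (0.86) and BGER016342-RA (0.83). All 10 were far less abundant, with means of 10.4 to 265 CPM. The Bla g 4 rows were not among the rows most like each other, at places 3934 and 3940 of these rankings. These values of r describe 8 libraries and carry no test. Without dsILP8 replicate 1 the 5 leading rows shared 1 with the list for BGER028757-RA and 4 with that for BGER028759-RA.

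The study's list holds another Bla g 4 gene, Bger_13124 (PSN34220), which the reference table gives the symbol BLG4_0 at positions 1204 to 2182 of contig PYGN01001536.1. The same comparison of levels, applied after the values had been seen to Bger_13124 and its listed neighbour Bger_13126, gave 1 close pair of rows, BGER024482-RA and BGER024484-RA. They were within a factor of 1.02, and the next best pair was off by a factor of 3.02. BGER024482-RA is thus a candidate for the remaining gene, on level and order alone. The match used the Control libraries only. The Control values given next are therefore those that picked the row, and its comparison with dsILP8 is not independent of that choice. It held 8.97, 28.6, 7.31 and 1961 CPM in dsILP8 replicates 1 to 4, against 3443, 1044, 1187 and 1976 CPM in Control replicates 1 to 4. Replicates 1 to 3 of dsILP8 were thus far below every Control library, and dsILP8 replicate 4 was within the Control range. The log2 fold change in edgeR was -2.02 with a standard error of 1.54 (FDR = 0.998), and -7.05 without dsILP8 replicate 4 (edgeR, FDR = 0.0741). BGER024484-RA, matched to the neighbour, which the study lists as similar to an RNA exonuclease, did not share this order. It held 2198, 942, 2314 and 2139 CPM in dsILP8 replicates 1 to 4, against 3327, 1591, 1044 and 2034 CPM in Control replicates 1 to 4 (edgeR's log2 fold change -0.11 with a standard error of 0.377, FDR = 0.998).

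**Figure D5:**
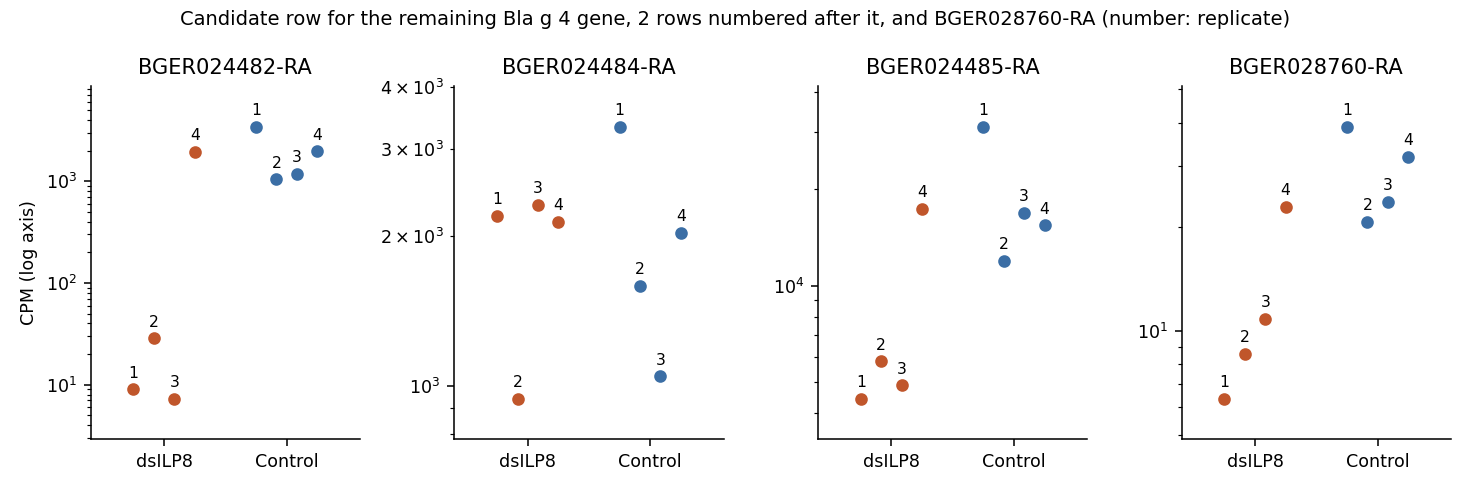
CPM (log axes of different range) of the candidate row BGER024482-RA, of 2 rows numbered after it and of BGER028760-RA, in dsILP8 (left) and Control (right) libraries, numbered by replicate. In 3 of the 4 panels dsILP8 replicates 1 to 3 lie below every Control library and dsILP8 replicate 4 does not, and BGER024484-RA is the exception.

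BGER024485-RA, the next row, was abundant and ran like BGER028759-RA (r = 0.82 of log2(CPM + 1), n = 8 libraries). It held 4450, 5809, 4886 and 17291 CPM in dsILP8 replicates 1 to 4, against 31238, 11956, 16837 and 15415 CPM in Control replicates 1 to 4 (edgeR's log2 fold change -1.28 with a standard error of 0.462, unadjusted p = 0.0208, FDR = 0.998). Without dsILP8 replicate 4 it was -1.93, and without Control replicate 1 it was -0.93 (edgeR, unadjusted p = 0.0710). The unadjusted p was also above 0.05 without dsILP8 replicate 2 (0.0581) and dsILP8 replicate 3 (0.0542). Its gene is not named in the files. The order in which dsILP8 replicates 1 to 3 lay below every Control library and dsILP8 replicate 4 did not was thus found in BGER028758-RA, BGER028759-RA, BGER028760-RA, BGER024482-RA and BGER024485-RA, and in 1.02% of all rows tested. These rows were picked after their values had been seen. In the row taken as BgILP8, dsILP8 replicate 4 held 107.6 CPM, between the 90.0 CPM of dsILP8 replicate 2 and the 112.9 CPM of dsILP8 replicate 3. Whether this order relates to the depletion of BgILP8 was not tested.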

How the data were processed

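mRNA libraries of conglobate glands from 4 dsILP8 and 4 Control samples were sequenced. The authors trimmed the reads (Trimmomatic 0.39), mapped them with HISAT2 2.1.0 to assembly version 1.1 and deposited expected counts per transcript row (featureCounts, Rsubread 2.12.3), with multi-mapping reads divided fractionally among their places. No source used here gives the strand setting or the annotation release. Columns were assigned through the library names in the labels. Counts were rounded, and rows with zero counts in more than 4 libraries removed. All rows were tested with edgeR 4.0.16 (quasi-likelihood, TMM, Benjamini-Hochberg adjustment) in R 4.3.3. DESeq2 1.42.0, the study's tool, and limma 3.58.1 (voom) were alternatives, besides other factors, filters, a replicate block and each library left out. Standard errors were derived from the F statistic. CPM used unrounded counts. Permutation tests of 4 against 4 had 70 assignments. The fits were also run on simulated data, and the outcome is not reported here.

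The genes, lists and tests were chosen with earlier results of these data known. Named were both genes, the row between them, BgILP8 and the most abundant row as points of reference, neighbours within 10 numbers with at least 1 CPM, the 5 rows most like each gene, and rows said to be chosen after their values were seen. Gene lists by name (lipocalins and allergens, fat body, muscle, amine receptors) could not be used, because 0 row identifiers were in the reference table. No sequence is shown, as none was given for these rows.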

Additional observations from a re-analysis of the deposited data

Results flagged for a closer look

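A library far from the others of its group was sought in 18 sets of 4 values. In 4 of them the gap to the nearest library, over the whole range, was above the critical value of Dixon's test for 4 samples, which chance exceeds in about 1 in 20 sets. Several of these rows were picked after their values had been seen. BGER028759-RA in Control replicate 1 stood at 43842 CPM (gap over range 0.850). BGER024482-RA in dsILP8 replicate 4 stood at 1961 CPM (0.989) and BGER024485-RA in the same library at 17291 CPM (0.894). BGER024484-RA in dsILP8 replicate 2 was low, at 942 CPM (0.872).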

How the results depend on the processing

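Neither Bla g 4 row was called in any of the 18 alternative fits each. The log2 fold change of BGER028757-RA ran from -0.026 (without dsILP8 replicate 3, where it changed sign) to 0.28 (without dsILP8 replicate 4), and that of BGER028759-RA between -0.75 and -0.32, without Control replicates 2 and 1 in that order. Its unadjusted p was 0.0198 with DESeq2 and at most 0.183, with adjusted p-values from 0.802 to 1. The number of genes past both thresholds was 1 with edgeR, 3 with DESeq2 and 2 with robust dispersion. Leaving out 1 library moved the CPM difference of BGER028757-RA between 1456 and 15984, that of BGER028759-RA between -11663 and -3902, the difference in summed share between -0.80 and 0.50 percentage points and the correlation between -0.59 and -0.26. BGER024484-RA changed sign without dsILP8 replicate 2 (0.13) and Control replicate 1 (0.24), and BGER024482-RA ran from -7.05 to -1.59, with adjusted p-values from 0.0741. With a minimum of 100 CPM the 5 rows most like each gene shared 1 (BGER028757-RA) and 0 (BGER028759-RA) with those named. A block on the replicate numbers of the sample titles gave 2 calls, and the fold changes were 0.10 (BGER028757-RA) and -0.59 (BGER028759-RA). Deviations of libraries with the same title number correlated at -0.06, -0.10, 0.05 and 0.14, so these numbers were not taken to pair samples. The library names carry other numbers, and pairing by those was not tested.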
